A study of Mus musculus with 48 samples.

Results

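Gastrocnemius muscle of female hCYP2B6-Tg mice was compared after 21 days of oral gavage, in 4 mice that received perfluorooctane sulfonate (PFOS) at 10 mg/kg/day and 4 that received 0 mg/kg/day. These 8 libraries, chosen by the genotype, sex and dose in the labels, belong to a study of 48 libraries, 1 per mouse, on mitochondrial metabolism in muscle. Its other libraries came from hCYP2B6-Tg males and from Cyp2b-null mice of both sexes, and part of the series received 1 mg/kg/day. PFOS is a persistent fluorinated surfactant. hCYP2B6-Tg mice carry the human gene of the cytochrome P450 enzyme CYP2B6 and are known as a line built on a background without the mouse Cyp2b genes, so treated and control mice share both changes. The reads of Cyp2b9, Cyp2b10 and Cyp2b13 were at 0 counts in all 8 libraries, under a floor of 3 counts. The promoter of the transgene, the age of the mice and the solution given at 0 mg/kg/day remain unknown, not given in the sources used here. Of 54532 genes in the count table, 15583 passed the filter on low counts and were tested.

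Skeletal muscle keeps its mass through a balance of protein synthesis and breakdown. When insulin and growth factor signalling through AKT falls, or when glucocorticoids or fasting act on the muscle, transcription factors of the FOXO family enter the nucleus. There they switch on the ubiquitin ligases Trim63 (MuRF1) and Fbxo32 (atrogin-1), which mark muscle proteins for the proteasome, together with genes of autophagy. Fast-twitch gastrocnemius fibres draw energy from glycolysis and the creatine phosphate system and, to a lesser degree, from the mitochondrial respiratory chain, whose subunits are encoded in the nucleus and in mitochondrial DNA. PFOS is known as a ligand of the fatty acid receptor PPAR alpha, whose usual muscle targets are genes of fatty acid use such as Pdk4, Ucp3 and Angptl4.

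Total counts were 12527882 to 14319487 in the controls and 13661289 to 18075955 in the treated libraries. Muscle transcripts led every library, with 726586 to 929354 counts of the fast myosin gene Myh4, whereas the extraction text of the labels names liver. The liver gene Alb had at most 74 counts, in treated replicate 3. The 8 liver markers read, Alb among them, together had 70 to 449 counts in the controls and 823 to 3745 in the treated libraries. Xist, the RNA of the silenced X chromosome, had 2017 to 4257 counts and Ddx3y on the Y chromosome had none (0 counts in each library). The library numbers of the labels were all lower in the controls than in the treated mice, so handling that followed this order and the dose cannot be told apart. In control replicate 1 the slow myosin gene Myh7 stood at 0.895 CPM (counts scaled to 1000000 per library), against 281 to 792 CPM in the other controls. Control replicate 4 and treated replicate 1 held 312 and 615 counts of the lymph node gene Glycam1, which had at most 1 count in the other 6 libraries.

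Treated replicate 2 stood apart from every other library. Among the tested genes, 1629 were at least 2-fold above and 2131 at least 2-fold below the control mean in it. The corresponding counts were 1097 above and 760 below in treated replicate 1, 1105 and 1004 in replicate 3, and 909 and 496 in replicate 4. The controls, each set against the mean of the other 3, had 243 to 942 genes above and 212 to 818 below. The median absolute deviation from the control mean was 0.56 on the log2 scale in treated replicate 2, 0.30 to 0.38 in the other treated libraries and 0.16 to 0.22 in the controls. On the first principal component of the 8 libraries, over 11482 genes and with 52.3% of the variance, replicate 2 lay at 67.5. The other treated libraries lay at 4.7 to 28.5 and the controls at -37.8 to -24.5. The 4 treated libraries were therefore all on one side of the controls, with replicate 2 farthest out and replicate 4 nearest.

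**Figure D1:**
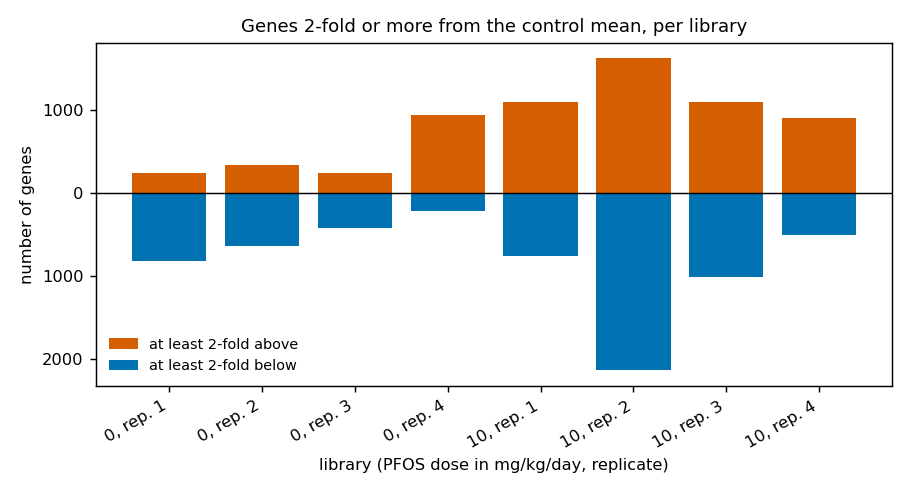
Number of tested genes at least 2-fold above (bars upward) or below (bars downward) the control mean in each of the 8 libraries, controls being set against the mean of the other 3 controls. Treated replicate 2 had 1629 genes above and 2131 below, more than any other library.

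Between 10 and 0 mg/kg/day 4309 genes passed at an adjusted p under 0.05 in edgeR's quasi-likelihood test, 27.7% of those tested. Of these 2208 were higher (14.2%) and 2101 lower (13.5%) in the treated mice. At least 2-fold differences that passed numbered 479 higher (3.07%) and 499 lower (3.2%). The 4 treated values did not overlap the 4 control values in 3612 genes (23.2%), 1615 of them higher (10.4%) and 1997 lower (12.8%), and in 2963 (68.8%) of the genes that passed. When library totals were used without scaling factors, the median gene moved from 0.04 to 0.21 on the log2 scale and the calls became 3516 higher (22.6%) and 1176 lower (7.55%). Changes below are on the scaled libraries, and the number of small rises and falls depends on that choice. The shares of 14.2% higher and 13.5% lower are the background for the counts in each gene list below. In bulk tissue, fewer cells of a type and less RNA per cell cannot be told apart.

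Leaving out treated replicate 2 left 2796 genes that passed (18.0%), 1257 higher (8.08%) and 1539 lower (9.9%). Of the original calls 60.9% passed again in the same direction. Among the rises 54.5% remained and among the falls 67.6%. Replicate 2 was the highest of the 4 treated libraries in 75.7% of the rises and the lowest in 58.4% of the falls. Replicate 4 exceeded all controls in 72.1% of the rises, and replicates 1, 2 and 3 did so in 88.0%, 96.6% and 91.9%. Each fall was below all controls in 87.6% of cases in replicate 4 and in 93.3% to 96.8% in the others. Of the 4309 calls, 2197 (51.0%) passed in each of the 8 fits that left out 1 library. The fit over all groups of the study shares its estimate of the spread between them. A fit of the 8 libraries alone, which has only their own spread, passed 2105 genes (15.5%), 919 higher (6.78%) and 1186 lower (8.75%).

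**Figure D2:**
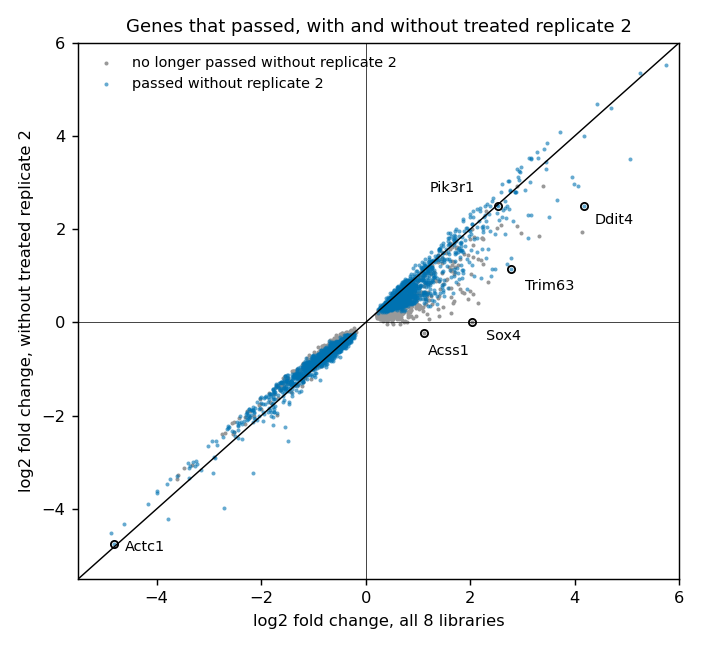
Log2 fold change of each gene that passed, from all 8 libraries (horizontal) and without treated replicate 2 (vertical), with the line of equality. Points for Trim63, Ddit4 and Sox4 lie below the line among the rises, whereas Pik3r1 and the falling Actc1 lie on it.

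The genes with large changes described next were taken from those that passed with no overlap between the groups and an average log2 CPM of at least 1, so their separation comes from that choice. Actc1, the cardiac alpha-actin gene that adult fast muscle expresses at a low level, had 2101, 1364, 1197 and 675 CPM in the 4 controls and 76.4, 41.2, 30.5 and 42.3 CPM in treated replicates 1 to 4. The log2 fold change was -4.81 ± 0.85 (SE, n = 4 against 4, adjusted p = 5.67e-05), and it was -4.75 without replicate 2. Reads of this gene can be shared with the near-identical actin Acta1. Nrep, a gene of regenerating neurons, fell from 93.0 to 137.4 CPM in the controls to 11.2, 3.49, 13.3 and 17.6 CPM (log2 fold change -3.37 ± 0.42, adjusted p = 3.89e-07). Gamt, which makes creatine, fell from 11.1 to 23.3 CPM to 1.19, 0.887, 1.58 and 2.52 CPM (-3.26 ± 0.39, adjusted p = 1.98e-07). Fbxl22, an F-box protein of the sarcomeric Z-disc, fell to 0.464, 0.414, 0.865 and 2.63 CPM from 7.42 to 17.2 CPM. Replicate 4 was the highest treated library in 3 of these 4 genes.

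Other large falls that passed with no overlap included Fgfbp1, a carrier of fibroblast growth factors (log2 fold change -2.90), and the potassium channel subunit Kcng4 (-2.85). The muscle phosphatase gene Dupd1 fell by 2.53 on the log2 scale. Aplnr, the apelin receptor, had 9.23 to 11.5 CPM in the controls and 1.79, 0.887, 2.16 and 2.18 CPM in the treated libraries (-2.56 ± 0.28, adjusted p = 4.69e-08). The spread of Aplnr over treated mice was small beside its distance to the controls.

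Many of the rises in this choice were uneven between the treated libraries. Pik3r1, the regulatory subunit of PI3-kinase, was an exception with 37.5, 38.0, 38.3 and 44.7 CPM in the controls and 194, 254, 277 and 198.1 CPM in the treated libraries. Its log2 fold change was 2.54 ± 0.26 (adjusted p = 1.26e-08) and 2.49 without replicate 2. The gene was well above the controls in each treated mouse.

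By contrast, Ddit4, an inhibitor of mTORC1 that stress and glucocorticoids induce, had 5.07, 7.36, 4.44 and 10.1 CPM in the controls and 27.3, 376, 62.5 and 23.7 CPM in treated replicates 1 to 4. The log2 fold change was 4.18 ± 0.70 (adjusted p = 2.82e-05) with all libraries and 2.49 (adjusted p = 0.00201) without replicate 2. Il6ra, the interleukin-6 receptor, had 4.03 to 7.38 CPM and 22.7, 187, 70.1 and 15.5 CPM (3.66 ± 0.50, and 2.63 without replicate 2). Odf3l2, an outer dense fibre family gene, had 0.895 to 3.27 CPM and 16.4, 79.1, 28.3 and 12.8 CPM (3.95 ± 0.73, and 3.12 without replicate 2). In these 3 genes replicate 2 exceeded the next treated library by more than 2-fold. Also among the rises without overlap, Gnmt, a glycine methyltransferase, rose by 2.88 and Ankrd2, a stretch-response protein of slow fibres, by 2.85 on the log2 scale. Gsta3, a glutathione transferase with near-identical relatives, had 0 to 0.145 CPM in the controls and 0.662, 0.887, 5.86 and 1.12 CPM in the treated libraries, and passed in 5 of the 8 fits that left out 1 library.

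Other rises were far higher in replicate 2 than in the other treated libraries. These genes were chosen because their log2 fold change moved most toward 0 without replicate 2, so that excess comes from the choice. Sox4, a developmental transcription factor, had 1.96 to 2.91 CPM in the controls and 2.05, 32.8, 2.79 and 2.52 CPM in the treated libraries. The log2 fold change was 2.03 with replicate 2 and 0.01 without it (adjusted p = 0.992). Acss1, a mitochondrial acetyl-CoA synthetase, had 307 CPM in replicate 2 and 39.9 to 48.5 CPM in the other treated libraries, against 39.1 to 61.1 CPM in the controls. Its log2 fold change turned from 1.12 to -0.23 without replicate 2. Edem1, which sorts misfolded proteins for degradation, stood at 95.2 CPM in replicate 2 and at 9.56 to 13.6 CPM in the other 3. Maff, a small MAF transcription factor, Acot2, a mitochondrial acyl-CoA thioesterase, and Retreg1 were of the same kind: 34.4, 202.8 and 3079 CPM in replicate 2 against at most 5.53, 42.8 and 522 CPM in the other treated libraries. Retreg1, a receptor for autophagy of the endoplasmic reticulum, and Arrdc3, an arrestin-like protein, still passed without replicate 2, with log2 fold changes of 1.00 and 1.26. Maff, Edem1, Acot2, Sox4 and Acss1 did not, and Acss1 also missed the threshold without control replicates 1, 3 or 4.

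Of 35 tested genes of the atrophy and FOXO list, 20 rose and 6 fell, with a median log2 fold change of 0.55, against 14.2% and 13.5% of all genes. Without treated replicate 2 the counts were 13 and 5 and the median was 0.23. The median member stood 0.27, 1.08, 0.26 and -0.01 above the control mean in treated replicates 1 to 4 on the log2 scale. Replicate 4 was within the range of the controls, which ran from -0.07 to 0.04. For this and the lists below, each control was set against the mean of all 4 controls, itself included, which narrows the control range.

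Trim63 (ENSMUSG00000028834, chr4:134315120-134329629, plus strand, GRCm38), the ligase that marks thick-filament proteins, had 310, 276, 294 and 233 CPM in the controls. It had 570, 5801, 1062 and 217 CPM in treated replicates 1 to 4. The log2 fold change was 2.78 ± 0.47 (adjusted p = 2.94e-05), and 1.15 (adjusted p = 0.00581) without replicate 2. In the fit of the 8 libraries alone it was 2.77 with an adjusted p of 0.0509. Replicate 2 was more than 5-fold above the next treated library, and replicate 4 was below all 4 controls. Fbxo32 (ENSMUSG00000022358, chr15:58175879-58214932, minus strand, GRCm38), the other ligase of the pair, had 320, 495, 421 and 291 CPM and 979, 4605, 1637 and 371 CPM (2.31 ± 0.37, adjusted p = 1.65e-05, and 1.38 without replicate 2). Its replicate 4 lay inside the control range. Foxo1 itself had 15.9 to 27.1 CPM in the controls and 68.9, 303, 117.5 and 48.7 CPM in the treated libraries (2.67 ± 0.40), so that all 4 were above the controls. Foxo3 had 39.3 to 43.8 CPM and 61.2, 196, 75.0 and 56.7 CPM (1.23 ± 0.24, and 0.64 without replicate 2).

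Depp1, a FOXO target, had 3.76 to 6.95 CPM in the controls and 27.9, 217, 70.2 and 13.0 CPM in the treated libraries (4.06 ± 0.62, and 2.92 without replicate 2). Sesn1, a leucine sensor that restrains mTORC1, had 37.4 to 69.3 CPM and 67.8, 594, 144.2 and 72.1 CPM (1.93 ± 0.38, and 0.72 without replicate 2). Depp1 was above the controls in all 4 treated libraries, and Sesn1 overlapped the controls in replicate 1. Eif4ebp1, the translation repressor downstream of mTORC1, rose by 1.82, and Irs2, an insulin receptor substrate, by 0.93, or 0.44 without replicate 2. The members that fell were Fbxl22, Bcl6, Trim55, Trim32, Asb2 and Fbxo40, of which Asb2 missed the threshold without treated replicate 2 and Fbxo40 without control replicates 3 or 4 or treated replicate 3. Bcl6, a transcriptional repressor, had 49.9 to 86.6 CPM in the controls and 30.5, 17.9, 24.5 and 28.8 CPM in the treated libraries (-1.34 ± 0.28).

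**Figure D3:**
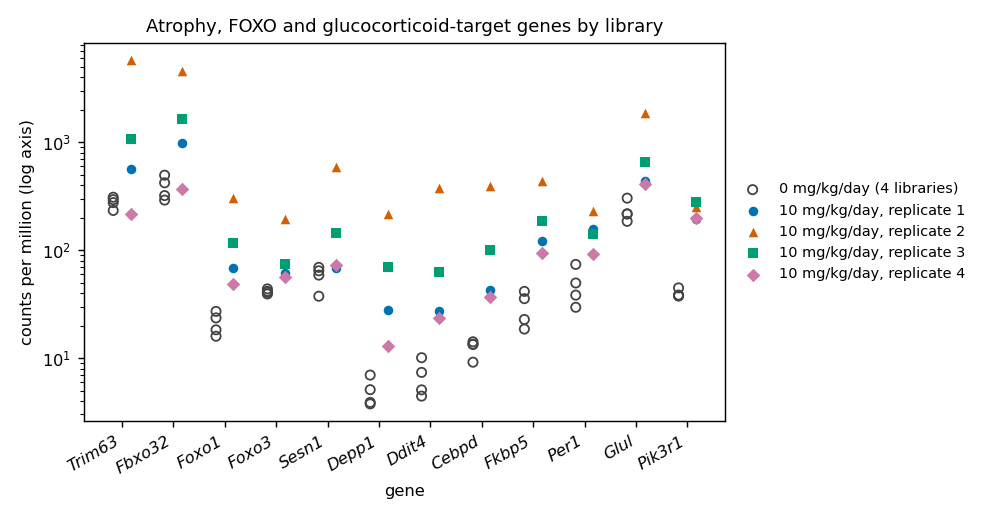
CPM, on a log axis, of 12 genes of the atrophy, FOXO and glucocorticoid-target lists in each control (open circles) and each treated library (filled symbols by replicate). Replicate 2 was the highest library for all of them but Pik3r1, and replicate 4 lay below all controls for Trim63.

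Of 24 tested glucocorticoid-receptor targets, 18 rose and 1 (Dusp1) fell, with a median log2 fold change of 1.59, where 14.2% of all genes rose and 13.5% fell. Without treated replicate 2, 13 rose, none fell and the median was 1.17, against 8.08% and 9.9% of all genes. The median member stood at 0.77, 2.67, 1.51 and 0.76 above the control mean in treated replicates 1 to 4, and between -0.10 and 0.10 in the controls. All 4 treated libraries were thus above the controls, unlike the atrophy list, on which replicate 4 was not. Ddit4, Klf15 and Cebpd are known as targets of other stress signals too, and Klf15 stands on both lists.

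Fkbp5, a co-chaperone of the glucocorticoid receptor and a standard sign of its activity, had 35.5, 18.6, 41.5 and 22.8 CPM in the controls and 121, 433, 185 and 94.3 CPM in the treated libraries. The log2 fold change was 2.81 ± 0.40 (adjusted p = 3.25e-06), and 2.17 without replicate 2. Cebpd, a transcription factor of the acute phase, had 9.16 to 14.2 CPM and 42.7, 389, 99.8 and 36.7 CPM (3.50 ± 0.55, and 2.26 without replicate 2). Per1, a clock gene with a glucocorticoid response element, had 29.5 to 73.8 CPM and 158.7, 233, 142.2 and 93.0 CPM (1.71 ± 0.39). No treated library overlapped the controls for these 3 genes, whose choice favoured genes that passed.

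Glul, glutamine synthetase, had 185 to 304 CPM in the controls and 436, 1851, 656 and 414 CPM in the treated libraries (1.86 ± 0.36, and 1.12 without replicate 2). The metallothionein gene Mt1 rose by 2.48 ± 0.56 and Hif3a, a regulator of the hypoxia response, by 3.98 ± 0.64, from under 0.6 CPM in each control to 2.72, 11.5, 2.07 and 1.96 CPM. Klf9 rose by 0.80 and Klf15, a regulator of amino acid breakdown, by 1.15, or 0.76 without replicate 2. Zbtb16 did not pass without replicate 2, at a log2 fold change of 0.52 in place of 1.39. Lcn2, a secreted acute-phase protein, was at 3.72 CPM in replicate 2 and 6.87 CPM in replicate 3 and at 0.265 and 0.280 CPM in replicates 1 and 4, near its controls of 0 to 0.218 CPM. Members that did not pass included the receptor itself, Nr3c1, at -0.06, and Tsc22d3 (GILZ) and Sgk1 at 0.28 and 0.37.

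Promoters of these genes were read in the 250 bases before the RefSeq start of each gene (GRCm38.p6), for 11054 tested genes with an entry. The FOXO core TGTTTAC, on either strand, was in 2.2% of all of them, in 2.2% of the genes that rose and in 2 of 29 promoters of the atrophy list, those of Trim63 and Mdm2, the second of which did not pass. In the glucocorticoid list only Klf9 of 20 had it. The E-box CACGTG, a palindrome, was in 8.32% of all promoters, in 9.56% of the genes that rose and in 4 of 20 of the glucocorticoid list (Dusp1, Fkbp5, Klf15 and Per1). Trim63, Klf9, Fkbp5 and Klf15 are shown 5′ to 3′ on the strand of the gene, with the matched letters in capitals, because they rose and carry a match. Klf9 has its FOXO core on the other strand, and Klf15 has a pair of E-boxes.
Trim63, chr4:134314870-134315119, plus strand: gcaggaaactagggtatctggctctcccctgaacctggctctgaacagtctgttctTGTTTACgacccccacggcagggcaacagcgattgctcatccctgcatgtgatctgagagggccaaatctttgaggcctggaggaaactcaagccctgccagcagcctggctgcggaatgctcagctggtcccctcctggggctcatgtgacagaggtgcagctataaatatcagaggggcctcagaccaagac
Klf9, chr19:23140976-23141225, plus strand: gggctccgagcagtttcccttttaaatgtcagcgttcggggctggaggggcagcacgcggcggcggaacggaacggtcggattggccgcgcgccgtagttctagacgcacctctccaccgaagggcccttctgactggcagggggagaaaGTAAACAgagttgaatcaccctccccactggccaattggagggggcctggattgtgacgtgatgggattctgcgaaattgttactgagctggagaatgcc
Fkbp5, chr17:28486150-28486399, minus strand: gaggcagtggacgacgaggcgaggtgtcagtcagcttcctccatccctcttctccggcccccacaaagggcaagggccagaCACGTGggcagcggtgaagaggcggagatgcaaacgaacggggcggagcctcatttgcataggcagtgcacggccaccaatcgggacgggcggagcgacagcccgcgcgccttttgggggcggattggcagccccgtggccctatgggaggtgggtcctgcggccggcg
Klf15, chr6:90462326-90462575, plus strand: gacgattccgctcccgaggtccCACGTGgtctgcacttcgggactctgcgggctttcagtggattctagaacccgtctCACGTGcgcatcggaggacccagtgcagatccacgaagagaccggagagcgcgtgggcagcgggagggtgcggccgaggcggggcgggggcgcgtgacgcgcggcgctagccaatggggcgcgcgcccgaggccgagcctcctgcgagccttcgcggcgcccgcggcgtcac

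Other genes of protein breakdown were read in the same way. Of 39 tested proteasome genes 13 rose and 2 fell, against 14.2% and 13.5% of all genes. Without replicate 2 the counts were 2 and 4, shares near the 8.08% and 9.9% of all genes. The summed level of the list was 3681 to 4117 CPM in the controls and 4281, 6442, 4235 and 3662 CPM in treated replicates 1 to 4. Psmd8, a subunit of the regulatory particle, was higher in all 4, with 109.1 to 134.2 CPM in the controls and 208, 381, 251 and 167.5 CPM (1.01 ± 0.20). Psmd11 was at 305 CPM in replicate 2 and 96.5 to 118.2 CPM in the others, against 93.0 to 100.6 CPM in the controls, and did not pass without replicate 2 (0.18). Psme1, a subunit of the interferon-induced activator, fell by 0.61 on the log2 scale.

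Among 31 tested autophagy genes 15 rose and 3 fell, against 14.2% and 13.5% of all genes. Without replicate 2 the counts were 7 and 3, against 8.08% and 9.9% of all genes. The share of falls was not above that of all genes in either fit. Bnip3, a mitophagy receptor and FOXO target, had 109.1 to 137.6 CPM in the controls and 226, 673, 275 and 188 CPM in the treated libraries (1.49 ± 0.24, and 0.92 without replicate 2). Map1lc3b, the membrane anchor of the autophagosome, rose by 0.81 and by 0.50 without replicate 2. Gabarapl1 and the initiating kinase Ulk1 passed only with replicate 2, in which they had 285 and 538 CPM. Fundc1, another mitophagy receptor, fell by 0.60 on the log2 scale. Of 28 tested lysosome genes 7 rose and 4 fell, the falls being near the 13.5% of all genes, and without replicate 2 the counts were 5 and 4 with a median of 0.01. Ctsl, the protease cathepsin L, had 101.5 to 130 CPM in the controls and 196, 576, 331 and 115 CPM in the treated libraries (1.43 ± 0.22, and 0.93 without replicate 2), with replicate 4 inside the control range.

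Of 36 tested nuclear complex I genes 29 fell and none rose, with a median log2 fold change of -0.49, against 13.5% of all genes that fell. The counts were 13 of 14 for complexes II and III, 10 of 15 for complex IV and 13 of 16 for ATP synthase, with medians of -0.54, -0.48 and -0.51. Without replicate 2 the falls numbered 22, 13, 6 and 11, and with unscaled library totals 18, 10, 3 and 11, with no rise in either case but 1 in complex IV with unscaled totals. The median complex I gene stood at -0.50, -0.62, -0.38 and -0.50 from the control mean in treated replicates 1 to 4.

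Ndufs1, the largest subunit of complex I, had 361, 391, 363 and 343 CPM in the controls and 216, 228, 194 and 218 CPM in the treated libraries (-0.77 ± 0.14, adjusted p = 5.52e-05). Ndufab1, the mitochondrial acyl carrier protein, fell by 0.81, Uqcrc1 of complex III by 0.72 and Cox5a of complex IV by 0.58 on the log2 scale. Cycs, cytochrome c, had 222 to 263 CPM and 141.9, 146, 145 and 155 CPM (-0.75 ± 0.15). Atp5b, the catalytic subunit of ATP synthase, had 2523 to 2712 CPM and 1925, 1911, 1996 and 1939 CPM (-0.44 ± 0.11). The spread between mice was small within both groups for these genes, and no treated value overlapped a control. The choice of genes favoured those that passed, so their separation comes in part from it. Ndufa5 and Ndufc2 of complex I, which passed too, had overlapping values.

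Of the 13 tested protein-coding genes of mitochondrial DNA 7 fell, with a median of -0.58, against 13.5% of all genes that fell. mt-Co1 had 28750 to 34010 CPM in the controls and 20810, 22080, 22480 and 20800 CPM in the treated libraries (-0.51 ± 0.13), and mt-Nd4 fell by 0.62. Mitochondrially encoded transcripts together took 9.42% ± 0.759 (SD, n = 4) of counts in the controls and 7.32% ± 0.749 in the treated libraries. The exact two-sided permutation test gave p = 0.0286, the smallest that 4 against 4 allow, and 0.0571 after adjustment over 4 library measures. The 20 most abundant genes of each library took 36.1% ± 0.683 and 30.7% ± 2.11 of counts, with the same p-values.

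In the list of TCA cycle and pyruvate dehydrogenase genes 17 of 22 fell and none rose, with a median of -0.50, and the count was again 17 without replicate 2. Dlat, the acetyltransferase of pyruvate dehydrogenase, had 219 to 233 CPM in the controls and 141.9, 111.1, 122.6 and 153 CPM in the treated libraries (-0.79 ± 0.13). Mdh2, malate dehydrogenase, had 654 to 743 CPM and 427, 420, 456 and 418 CPM (-0.71 ± 0.12). Cs, citrate synthase, fell by 0.51. Acads, an acyl-CoA dehydrogenase for short chains, fell by 0.85. The fatty acid list as a whole had 2 rises and 4 falls among 23, not far from the 14.2% and 13.5% of all genes. Without replicate 2 it had no rise and 5 falls, against 8.08% and 9.9% of all genes. Among 18 genes of mitochondrial biogenesis and dynamics, 3 rose, near the 14.2% of all genes, and 6 fell, the latter led by the deacetylase Sirt3 at -0.96. With unscaled totals the counts were 3 and 3, and without replicate 2 they were 0 and 5. Ppargc1a, the main coactivator of mitochondrial genes, stood at 27.7 to 40.8 CPM in the controls and 25.6 to 33.6 CPM in the treated libraries, and did not pass (-0.18 ± 0.20).

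The half-site AAGGTCA, which nuclear receptors of the ERR family read, was in 2.85% of the 11054 promoters on either strand. It was in 3.25% of the genes that fell. Across the lists of complex I, complex IV, ATP synthase and the TCA cycle it was in 6 of 77 promoters (7.79%). Those were Atp5g3, Atp5l, Atpif1, Ndufb2, Ndufb4 and Ndufs5, of which Atp5l and Atpif1 did not pass. The list of complexes II and III was not read for the half-site. Esrra, the gene of ERR alpha, fell by 0.63 on the log2 scale. Atp5g3, a subunit of the proton-carrying ring, and the complex I subunit Ndufb4 are shown as examples of carriers that fell. Their half-sites lie at position -52 on the other strand and at position -55 on the strand of the gene. Ndufs5, which fell with a smaller p than Ndufb4, is not shown.
Atp5g3, chr2:73911327-73911576, minus strand: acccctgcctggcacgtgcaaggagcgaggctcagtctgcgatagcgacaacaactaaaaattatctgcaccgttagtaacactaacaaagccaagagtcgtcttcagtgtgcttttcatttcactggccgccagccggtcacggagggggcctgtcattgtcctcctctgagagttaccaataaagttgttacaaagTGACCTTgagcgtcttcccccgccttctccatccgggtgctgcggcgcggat
Ndufb4, chr16:37654369-37654618, minus strand: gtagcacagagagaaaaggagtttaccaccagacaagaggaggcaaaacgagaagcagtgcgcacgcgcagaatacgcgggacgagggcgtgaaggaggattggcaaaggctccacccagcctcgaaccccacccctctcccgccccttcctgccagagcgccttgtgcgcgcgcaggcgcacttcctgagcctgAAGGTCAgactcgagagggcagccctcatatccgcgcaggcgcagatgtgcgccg
Atp5g3 had 367 to 449 CPM in the controls and 246, 235, 287 and 226 CPM in the treated libraries (-0.74 ± 0.15). Ndufb4 had 81.3 to 95.3 CPM and 70.6, 55.5, 71.3 and 66.6 CPM (-0.43 ± 0.14), and its adjusted p was 0.0203 with and 0.0982 without replicate 2. It also missed the threshold without control replicates 1 or 3.

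Of 28 tested genes of glycolysis and glycogen 14 fell and none rose, with a median of -0.43, against 13.5% of all genes that fell. The other 14 did not pass. Without replicate 2, 10 fell, and with unscaled totals 11 fell and 1 rose. Pgam2, the muscle phosphoglycerate mutase, had 1620 to 2047 CPM in the controls and 826, 236, 622 and 807 CPM in the treated libraries (-1.50 ± 0.27, and -1.23 without replicate 2). Eno3, the muscle enolase, had 7069 to 9287 CPM and 4625, 2489, 3311 and 4428 CPM (-1.08 ± 0.26). For both genes replicate 2 was lowest and the other 3 were still below every control. Pkm fell by 0.98, Ldha by 0.97 and the phosphorylase kinase subunit Phkg1 by 0.91. In the list of creatine and adenylate buffering 6 of 10 fell, among them Gamt, the adenylate kinase Ak1 and mitochondrial creatine kinase Ckmt2. The AMP deaminase Ampd3, a gene of atrophying muscle, had 18.0 to 27.7 CPM in the controls and 34.6, 176, 58.0 and 32.7 CPM in the treated libraries (1.79 ± 0.34, and 0.94 without replicate 2).

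In the PPAR and fasting list few members passed. Of 19 tested members 2 rose and none fell, against 14.2% and 13.5% of all genes, and the median was 0.43 with and -0.01 without replicate 2. Pdk4, the kinase that shuts pyruvate dehydrogenase in fasting, had 316, 1630, 1361 and 231 CPM in the controls and 262, 5759, 1617 and 475 CPM in the treated libraries. The controls thus spanned more than 5-fold, and the log2 fold change of 1.20 ± 0.68 did not pass (adjusted p = 0.198) and was -0.17 without replicate 2. Ucp3, a mitochondrial carrier that rises in fasting, had 65.6 to 252 CPM in the controls and 45.4, 287, 120 and 77.5 CPM (-0.25 ± 0.41, adjusted p = 0.709), and it passed as a fall in limma voom with sample quality weights (-1.20, adjusted p = 0.0147). Angptl4, an inhibitor of lipoprotein lipase, had 2.16 to 12.1 CPM and 4.04, 10.8, 28.3 and 11.2 CPM (1.09 ± 0.58, adjusted p = 0.165). The values of these 3 genes overlapped between the groups. The members that passed were Plin4 and Txnip. Plin4, a coat protein of lipid droplets, had 260 to 405 CPM in the controls and 593, 1528, 856 and 476 CPM in the treated libraries (1.29 ± 0.26, adjusted p = 0.000277, and 0.86 without replicate 2). It passed in each of the 8 fits that left out 1 library. Txnip, an inhibitor of glucose uptake, rose by 0.61, but did not pass without replicate 2 or without control replicate 4.

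**Figure D4:**
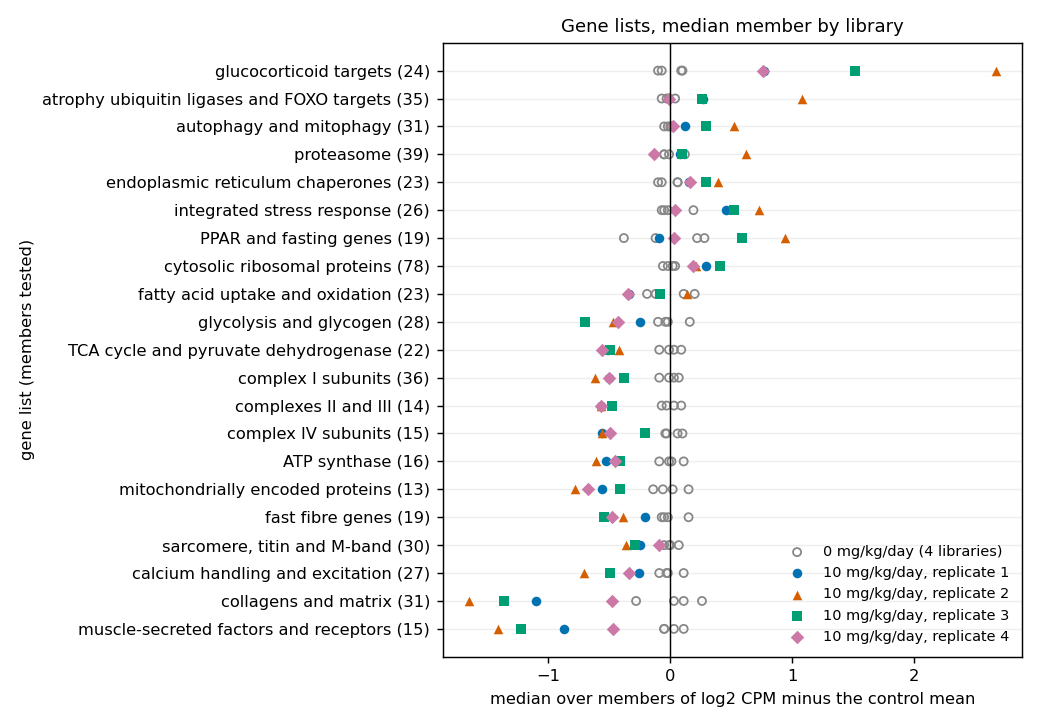
Median over the tested members of each gene list of log2 CPM minus the control mean, in each control (open circles) and each treated library (filled symbols). The mean is that of all 4 controls, so each control is set against a mean that includes itself. In the glucocorticoid list all 4 treated libraries lie at 0.76 or above, whereas in the atrophy list replicate 2 lies at 1.08 and replicate 4 at -0.01. In the complex I list all 4 lie between -0.62 and -0.38.

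Among 78 tested cytosolic ribosomal protein genes 40 rose, 38 did not pass and none fell, with a median of 0.28, against 14.2% of all genes that rose. Without replicate 2 the counts were 33 and 0. With unscaled totals 69 rose and none fell, the median of all genes being 0.21 there. Rps19 had 66.4 to 80.5 CPM in the controls and 104 to 127.3 CPM in the treated libraries (0.62 ± 0.11), and Rpl3 rose by 1.27. Single ribosomal protein genes are uncertain because their pseudogenes share reads. Among translation factors 19 of 44 rose and 3 fell, and without replicate 2 the counts were 13 and 3. Eef1a2, the elongation factor of adult muscle, fell from 1931 to 2118 CPM to 1410, 1318, 1153 and 1215 CPM (-0.67 ± 0.10, adjusted p = 7.91e-06). Of 20 cytosolic tRNA synthetases 7 rose, Gars among them at 0.46, with a median of 0.17. Without replicate 2, 4 rose and 1 fell, and the median was 0.07.

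In the integrated stress response, through which ATF4 raises amino acid genes, 9 of 26 rose and 2 fell, against 14.2% and 13.5% of all genes. Without replicate 2 the counts were 6 and 2, and the median was 0.38 in place of 0.61. Ppp1r15a (GADD34), which restores translation, had 19.96 to 30.4 CPM in the controls and 60.3, 148, 61.1 and 37.1 CPM in the treated libraries (1.69 ± 0.25). Of 23 endoplasmic reticulum chaperone genes 9 rose with replicate 2 and 2 without it, the latter being near the 8.08% of all genes. Dnajb9 had 40.5 to 44.0 CPM and 57.6, 140, 77.5 and 52.7 CPM (0.96 ± 0.16, and 0.57 without replicate 2), and Hspa5 (BiP) rose by 0.66. Both were above the controls in all 4 treated libraries. Of 22 heat shock genes none rose and 5 fell, with 3 and 3 under unscaled totals, and Hspa8 fell by 0.74.

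Among fast fibre genes 10 of 19 fell and 1 rose, with a median of -0.41. Casq1, the calcium store protein of the fast sarcoplasmic reticulum, had 3002, 2494, 2479 and 2589 CPM in the controls and 1022, 365, 736 and 1058 CPM in the treated libraries (-1.73 ± 0.28, adjusted p = 1.5e-05). Pvalb, the calcium buffer parvalbumin, had 7376 to 8610 CPM and 3933, 2917, 3410 and 3311 CPM (-1.20 ± 0.30). Mylpf, the fast regulatory light chain, fell by 1.02 and Myh4 by 0.56, from 61510 to 69340 CPM to 41520 to 48130 CPM. Actn3, the fast Z-disc actinin, went the other way and rose by 0.60. No library overlapped between the groups for these 5 genes, whose choice favoured genes that passed.

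Of 30 sarcomere genes 13 fell and 5 rose, the rises being near the 14.2% of all genes, and without replicate 2 the counts were 11 and 3. Acta1, the main actin of skeletal muscle, had 36560 to 43180 CPM in the controls and 19250, 14830, 14680 and 16750 CPM in the treated libraries (-1.26 ± 0.21), and Nrap, a scaffold of new myofibrils, rose by 0.94. In calcium handling and excitation 14 of 27 fell and 1 rose, that one being Sln (sarcolipin), an inhibitor of the calcium pump, with 1.02 to 2.86 CPM in the controls and 5.23, 5.08, 11.5 and 18.8 CPM in the treated libraries. Sln missed the threshold without control replicate 3 or treated replicate 4. Slow fibre genes cannot be judged in the same way, because control replicate 1 nearly lacks them. The summed level of 6 slow markers was 33.5 CPM there, 816 to 1893 CPM in the other controls and 939 to 3329 CPM in the treated libraries. Of 17 slow fibre genes 2 rose, Ankrd2 and Csrp3, which is near the 14.2% of all genes. Csrp3, a muscle LIM protein, had 14.7, 63.2, 44.0 and 64.5 CPM in the controls and 178.5, 140, 298 and 375 CPM in the treated libraries, and missed the threshold without control replicates 1 or 3 or treated replicates 3 or 4. Myh7 (1.39 ± 1.46), Myh2 (0.07 ± 0.76) and Myh1 (0.44 ± 0.48) did not pass.

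**Figure D5:**
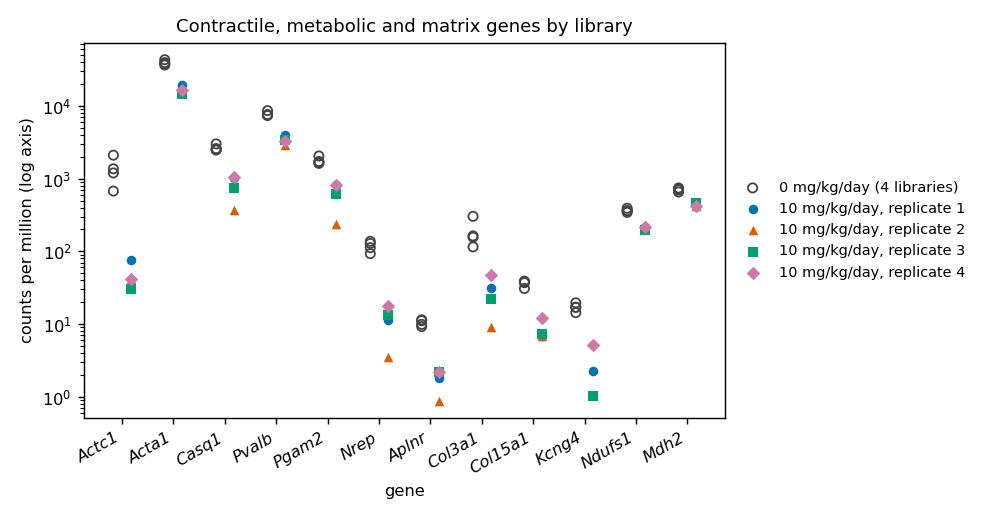
CPM, on a log axis, of 12 contractile, metabolic and matrix genes in each control (open circles) and each treated library (filled symbols by replicate). For each gene all 4 treated libraries lie below all 4 controls, and replicate 2 is the lowest for Casq1, Pvalb, Pgam2, Nrep, Aplnr, Col3a1 and Col15a1. The genes were chosen among those that fell.

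Of 31 tested matrix genes 18 fell and 2 rose, against 13.5% and 14.2% of all genes, and 18 fell and none rose without replicate 2. The median member stood at -1.10, -1.65, -1.36 and -0.48 from the control mean in treated replicates 1 to 4 on the log2 scale. Col3a1, a fibrillar collagen of interstitial tissue, had 303, 115, 162.9 and 156 CPM in the controls and 31.2, 9.22, 22.2 and 47.8 CPM in the treated libraries (-2.74 ± 0.41). Col15a1 of the basement membrane had 30.8 to 38.8 CPM and 6.89, 6.80, 7.35 and 11.97 CPM (-2.13 ± 0.23, adjusted p = 2.73e-08), and Col1a1 fell by 2.42. Lox, which crosslinks collagen, rose by 1.39, but did not pass without replicate 2 of either group. Of 5 marker genes of fibroblasts and fibro-adipogenic cells 1 fell, and 0 did without replicate 2, with a median log2 fold change of -0.79. Their median member stood at -0.39, -1.56, -0.62 and -0.41 from the control mean in treated replicates 1 to 4. In the controls it stood at -0.15 to 0.25. Their summed level went another way, with 258 to 344 CPM in the controls and 289 to 408 CPM in the treated libraries. The part of these cells in the matrix results was not tested.

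Secreted factors fell too, in 10 of 15 tested genes, with a median of -0.94. Ostn (musclin) had 31.2 to 66.6 CPM in the controls and 18.0, 3.61, 2.83 and 15.1 CPM in the treated libraries (-2.11 ± 0.59). Apln, the ligand of the apelin receptor, fell by 2.01, so that ligand and receptor were both lower. Nrep belongs to the same list. Without replicate 2 the list had 6 falls, and with unscaled totals it had 5 falls and 1 rise.

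In the insulin and growth factor list 13 of 35 rose and 5 fell, the falls being near the 13.5% of all genes. Without replicate 2 the counts were 5 and 5, against 8.08% and 9.9% of all genes. Pik3r1 was the largest rise. Igf1r, the receptor of IGF-1, had 24.0 to 26.8 CPM in the controls and 52.2, 73.7, 45.0 and 29.9 CPM in the treated libraries (0.97 ± 0.17). Igfbp5, an IGF-binding protein, had 540 to 1101 CPM and 166, 36.2, 126 and 312 CPM (-2.20 ± 0.40). Grb14, an inhibitor of the insulin receptor, fell by 1.53, and the myostatin mediator Smad3 fell by 1.32. All 4 treated libraries lay outside the control range for these 4 genes, whose choice favoured genes that passed.

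Few lipid synthesis genes passed. Of 20 genes 3 rose and 2 fell, near the 14.2% and 13.5% of all genes. Srebf1 rose by 1.07 and Mlxipl (ChREBP) fell by 0.99, each a transcription factor of lipogenesis. Fasn, fatty acid synthase, had 16.04, 10.2, 12.1 and 112 CPM in the controls and 59.1, 18.5, 35.7 and 149 CPM in the treated libraries, and did not pass (0.80 ± 1.00). Adipocyte markers were unequal between libraries in another order. Their summed level was 70.6, 35.4, 83.3 and 268 CPM in the controls and 400, 75.2, 1298 and 467 CPM in the treated libraries. None of the 8 passed, with Cfd at 2.49 ± 1.08 and Adipoq at 2.25 ± 1.03. Replicate 2 was the lowest treated library on them, and their part in the lipid results was not tested.

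Smaller lists held a few large changes. For their counts, the shares of all genes that rose and fell were 14.2% and 13.5%, or 8.08% and 9.9% without replicate 2. The imprinted gene Peg3, expressed from the paternal allele, had 34.5 to 60.3 CPM in the controls and 82.3, 199.3, 408 and 101.8 CPM in the treated libraries (2.17 ± 0.34), with replicate 3 highest. Among clock genes 4 of 19 rose and 1 fell, the last being Dbp, with 63.6 to 112 CPM in the controls and 38.5, 5.20, 12.9 and 53.2 CPM in the treated libraries. Amd1, which feeds polyamine synthesis, fell by 1.12, and 5 of 10 polyamine genes fell and 2 rose, or 3 and 1 without replicate 2. Por, the electron donor of cytochrome P450 enzymes, rose by 0.86, which did not pass without replicate 2. Cyp1b1, which did not pass without control replicates 1 or 3, rose from 0.145 to 0.654 CPM to 1.52, 2.60, 2.45 and 1.68 CPM. In the interleukin-6 list 6 of 15 rose, including Il6ra, Cebpd and the kinase Pim1 at 0.79. None of 22 interferon response genes passed. Runx1, a transcription factor of denervated muscle, rose by 1.73, the only one of 20 genes of the neuromuscular list to pass.

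Markers of other cell types were read beside these results. The 4 tested liver markers summed to 5.645 to 31.6 CPM in the controls and 48.5 to 179.7 CPM in the treated libraries. Their median log2 fold change was 3.04, but none of the 4 passed, and their part in the results was not tested. Red blood cell markers summed to 62.2 to 97.3 CPM in the controls and 34.0 to 42.3 CPM in the treated libraries, and 2 of 5 fell. Hbb-bs, a gene with near-identical copies, fell by 1.21. It did not pass without control replicate 2, and without treated replicate 2 the list had 1 fall. Of 4 satellite cell markers 3 fell, including Pax7 by 0.83, and 1 did without replicate 2. Pax7 did not pass without control replicate 1 or treated replicates 2 or 3. Cldn5 of endothelium and Cd68 of macrophages were the only members of their lists of 7 to pass, at 0.80 and 1.43. Cldn5 lost the threshold without control replicates 1 or 4 or treated replicate 3, and Cd68 without control replicates 2 or 3 or treated replicates 1 or 4. The summed lists ran from 240 to 334 and from 20.1 to 47.1 CPM in the controls and from 261 to 359 and from 27.4 to 58.1 CPM in the treated libraries. Lymphocyte markers summed to 180.9 and 166 CPM in control replicate 4 and treated replicate 1, the 2 libraries with Glycam1, and to 15.1 to 39.0 CPM elsewhere. None of the 9 passed. Without these 2 libraries 3895 genes passed in all (25.2%), and Cldn5, Cd68, Hbb-bs and Pim1 no longer did.

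The response to 10 mg/kg/day was also set against that of the other strata, which share no libraries with it. In their own comparisons 2882 genes passed in hCYP2B6-Tg males (18.5%), 1979 in Cyp2b-null females (12.7%) and 2463 in Cyp2b-null males (15.8%). The difference between hCYP2B6-Tg females and the mean of the other 3 passed in 186 genes (1.19%), 0.789% of those tested in the direction of a higher response in these females and 63 genes (0.404%) of a lower one. Without treated replicate 2 it passed in 15 genes (0.0965%). Without control replicates 1, 3 and 4 it passed in 1, 28 and 58 genes, and without treated replicates 1 and 4 in 502 and 862, so the number rests on single libraries. The difference from hCYP2B6-Tg males passed in 140 genes (0.898%) and that from Cyp2b-null females in 213 (1.37%), with 29 (0.187%) and 13 (0.0836%) without replicate 2.

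Of the 17 named genes whose response differed from the other strata, 11 were rises in which replicate 2 was the highest treated library. Trim63 had a log2 fold change of 2.78 here and of 0.93, -0.66 and 2.01 in males of the same genotype and in null females and null males, in that order, and the difference of 2.02 ± 0.52 (adjusted p = 0.0397) became 0.39 (adjusted p = 0.776) without replicate 2. Fbxo32 differed by 1.72 ± 0.42 and by 0.79 without it. Acot2, Retreg1, Hif3a, Fkbp5, Ppp1r15a and Dnajb9 passed with adjusted p of 0.026 to 0.0489 and did not pass without replicate 2. Ampd3 differed by 1.5 ± 0.39 and by 0.65 without it. Odf3l2 differed by 3.41 ± 0.81, and Zim1, an imprinted zinc finger gene that was high in replicates 2 and 3 alone, by 1.88 ± 0.40. The atrophy list had a median log2 fold change of 0.05, -0.12 and 0.41 in the other strata, and the glucocorticoid list had 0.98, 0.03 and 1.23.

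Set against Cyp2b-null females alone, the difference in response passed for further named genes. Among them were Depp1 (4.62, adjusted p = 0.00646), Ddit4 (4.96, adjusted p = 0.00654) and Cebpd (3.59, adjusted p = 0.0128). The log2 fold changes of these 3 genes in the null females were -0.55, -0.78 and -0.09, none of which passed. Without treated replicate 2 their differences were 3.47 (adjusted p = 0.0364), 3.27 (adjusted p = 0.0623) and 2.34 (adjusted p = 0.116). Against hCYP2B6-Tg males none of these 3 genes passed, at differences of 0.62, 1.32 and 1.29. Fbxo32 differed from null females by 3.16 (adjusted p = 0.00185), and by 2.23 (adjusted p = 0.0114) without replicate 2. Dynll1 differed from them by -1.94 (adjusted p = 0.0118), and by -1.7 (adjusted p = 0.0371) without it. Pdk4, which did not pass here, fell in the null females by 3.6 on the log2 scale (adjusted p = 0.00117). Its difference was 4.8 (adjusted p = 0.0143), and 3.43 (adjusted p = 0.125) without replicate 2. Apart from Depp1, Fbxo32 and Dynll1, no named difference from null females passed without replicate 2. Genes whose fall was larger here than in the other strata included Kctd21, an adaptor of ubiquitin ligases. It had 8.06, 5.48, 5.82 and 5.11 CPM in the controls and 1.13, 2.72, 2.31 and 2.91 CPM in the treated libraries. Its difference from the mean of the other 3 strata was -1.38 ± 0.25 (adjusted p = 0.0116) and -1.47 (adjusted p = 0.0147) without replicate 2. Among the named differences from that mean it was the only one that passed both times. Zfp493, Stbd1, Dynll1, Exoc3l and Mlxipl differed from that mean by -1.74, -1.44, -1.50, -1.38 and -0.79, and none passed without replicate 2. For the respiratory chain lists no gene passed the difference, and their medians in the other strata were -0.45 to -0.71, against -0.48 to -0.54 here.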

How the data were processed

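Messenger RNA of gastrocnemius was sequenced, and the table the authors deposited holds raw counts per gene for 48 libraries. Per the submitters' processing notes, HISAT2 was used with GRCm39. The counting program, its annotation and its use of strand were not given in the sources used here, so reads of overlapping and antisense genes cannot be told apart. Gene positions in the deposited table are those of GRCm38: of 54495 identifiers found in GENCODE vM21, 53585 (98.3%) have the same start and end there.

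Groups come from the labels, with 1 library per mouse, and p-values measure the spread between mice. Counts were filtered with filterByExpr and scaled with TMM in edgeR 4.0.16 (R 4.3.3), and 12 groups were fitted in 1 quasi-likelihood model (36 residual degrees of freedom and a biological variation coefficient of 23.5%). Contrasts were tested with glmQLFTest, two-sided, with Benjamini-Hochberg adjustment over all genes tested and a threshold of 0.05. Fold changes are log2 fold change ± standard error. CPM were computed from the deposited counts on scaled library sizes. On counts simulated for this comparison over 15583 genes, 80% of 100 genes changed 2-fold and 97% of 100 changed 4-fold were recovered, and 7.81% of calls were false. The simulated counts came from the untreated means with a common spread per gene, and held no library like treated replicate 2. Far fewer genes changed in them than passed in the data, so these rates need not hold for the data. No libraries of a group were copies of each other: the chi-square over its degrees of freedom was at least 8.38 in the 12 pairs.

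Gene lists, members and tests were chosen with earlier results of these data known. Named genes are the 12 largest rises and 12 largest falls among genes that passed at an average log2 CPM of at least 1 without overlap between groups, up to 4 members with the smallest p per list, the 10 genes that moved most toward 0 without treated replicate 2, the 5 and 5 largest differences from the other strata, and a set of muscle, sex and liver genes. Members that a list counts are also named with their value, some of them chosen after their values were seen, and a few genes chosen by this rule are not reported here. Where a symbol has 2 identifiers, lists count the more abundant. Library measures were compared by exact two-sided permutation tests. Alternatives were DESeq2 1.42.0 and its size factors, limma 3.58.1 voom with sample quality weights, unscaled library totals, scaling without mitochondrial and the 20 most abundant genes, no filter and a stricter one (CPM of at least 1 in 16 libraries), the 8 libraries alone, a replicate block, and each library left out.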

Additional observations from a re-analysis of the deposited data

Results flagged for a closer look

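Among 298 groups of 4 libraries examined, 17 had 1 library far from the other 3, by the gap to its nearest neighbour over the whole range of log2 CPM, against Dixon's critical value for 4 samples. Chance alone gives about 1 such group in 20. Treated replicate 2 was the high library for Sox4 (0.894), Edem1 (0.846), Acss1 (0.904), Tsc22d3 (0.92) and Hspa5 (0.898), and the low one for Fundc1 (0.837) and Grb14 (0.868). Treated replicate 4 was the high one for Col15a1 (0.862). Control replicate 1 was low for Ankrd2 (0.871) and Myh7 (0.844) and high for Eif4ebp1 (0.872) and Pkm (0.84). Control replicate 4 was low for Cebpd (0.867), Ndufb2 (0.858) and Txnip (0.921) and high for Pik3r1 (0.877), and control replicate 3 was high for Fgfbp1 (0.84).

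The response of 17 named genes differed from the mean response of the other 3 sex and genotype strata. It was higher in hCYP2B6-Tg females for Odf3l2 (3.41), Hif3a (2.95), Acot2 (2.52), Trim63 (2.02), Zim1 (1.88), Retreg1 (1.75), Fbxo32 (1.72), Fkbp5 (1.64), Ampd3 (1.5), Ppp1r15a (1.17) and Dnajb9 (0.78), on the log2 scale. It was lower for Zfp493 (-1.74), Dynll1 (-1.50), Stbd1 (-1.44), Kctd21 (-1.38), Exoc3l (-1.38) and Mlxipl (-0.79). Without treated replicate 2 the difference passed for Kctd21 (-1.47, adjusted p = 0.0147) and for none of the other 16.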

How the results depend on the processing

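The 4309 genes that passed between 10 and 0 mg/kg/day became 2105 in a fit of the 8 libraries alone, 1667 in that fit with a replicate block, and 2796 to 4734 when 1 library was left out, lowest without treated replicate 2. Under the other alternatives the number stayed within 1.5 times, and DESeq2 passed 4269 of the same genes in the same direction. The replicate block in the fit of all groups gave 4266 genes. The labels do not say that the numbers pair the mice. Same-numbered libraries correlated at 0.13, 0.19, -0.03 and 0.07 in their deviations from the group means, and 4 of 8 libraries correlated best with their own number. Over all pairs of a control and a treated library the range was -0.25 to 0.24. With so few libraries these values cannot decide whether the mice are paired. Of the named genes that passed, 16 lost the threshold and 1 turned without treated replicate 2. In the fit of the 8 libraries alone 19 lost it, among them Trim63, Sesn1, Irs2, Dbp, Txnip and Cldn5. With the block in that fit 31 did, Foxo3, Runx1, Apln, Ctsl and Map1lc3b included.

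The 186 genes that differed from the mean of the other strata became 97 with unscaled library totals, 88 without a filter, 288 with the stricter filter, 444 with DESeq2 and 120 with voom, and 1 to 862 when 1 library was left out. The 140 that differed from hCYP2B6-Tg males became 62 with unscaled totals, 42 without a filter and 317 with DESeq2, and 27 to 497 when 1 library was left out. The 213 that differed from Cyp2b-null females became about 1.3e2 without a filter (87 higher and 41 lower), 384 with the replicate block, 541 with DESeq2 and 72 with voom, and 13 to 1084 when 1 library was left out. The cause was not tested.

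Voom gave treated replicate 2 a quality weight of 0.144, against 0.553 to 2.707 in the other libraries of the 2 groups. Its results are thus not independent of those without that library. Acss1 turned from 1.12 to -0.15 with voom, and ran from -0.23 (without treated replicate 2) to 1.39 when 1 library was left out. Among genes that did not pass, Pdk4 turned to -0.72 with voom, and ran from -0.17 (without treated replicate 2) to 1.67. Ucp3 ran from -0.96 to 0.08 and Myh2 from -0.21 to 0.25 when 1 library was left out, and Myh2 was -0.02 with voom, in which Ucp3 passed at -1.20 (adjusted p = 0.0147). Nr3c1 turned to 0.11 with unscaled totals and ran from -0.19 to 0.01 when 1 library was left out. Tsc22d3 turned to -0.11 with voom and ran from -0.21 to 0.42.

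When 1 library was left out, the difference in total counts ran from 1.63 to 3.1 (in units of 1000000), in the mitochondrial share from -2.41 to -1.76 percentage points and in the share of the 20 most abundant genes from -6.09 to -4.43. Their adjusted p was 0.0381 without treated replicate 1. At these depths, statements on absent transcripts rest on the floor of 3 counts.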
